A study of Mus musculus with 43 samples.

Results

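The 83 genes described here encode the proteins of the cytosolic ribosome, and they were the protein-coding genes among 46983 genes in the table whose symbols name a large-subunit protein (Rpl), a small-subunit protein (Rps), a protein of the acidic stalk (Rplp0, Rplp1, Rplp2) or Rpsa. The choice used names alone and no measured value. Of the 83 genes, 51 belong to the large subunit and 32 to the small subunit, and 6 of them (Rpl3l, Rpl7l1, Rpl10l, Rpl22l1, Rpl39l and Rps27l) are paralogs of another member. All 83 passed the filter on low values.

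Transcript levels came from stranded mRNA sequencing of mouse germ cell cultures started from THY1-positive testis cells and grown on STO feeders, a mouse fibroblast line, in a serum-free medium that held FGF2 (1 ng/ml), GDNF (20 ng/ml) and GFRA1 (150 ng/ml), at passages 3 to 12. Stra8 encodes a germ cell protein that retinoic acid (RA) induces. Stra8-knockout cultures (KO; lines KO12, KO20 and KO21) and wild-type cultures (WT; lines WT17, WT23 and WT25) received RA or its solvent DMSO at 0.01% for 4, 8 or 24 h, or were taken untreated at 0 h. Each of the 14 groups holds 3 libraries, 1 for each replicate name, 42 libraries in all; the replicates are called lines here because their names repeat across conditions. The label for RA reads 0.01 M, and whether this was the concentration in the dish could not be checked. Whether a line stands for 1 animal or a pool is not said. The error behind the p-values came from how far each library lay from its group mean. In the main fits it drew on every group fitted, including groups outside a given comparison. The same lines recur from group to group, and libraries of 1 line tended to deviate together. These fits treat such libraries as independent, so the error rests on fewer independent units than libraries, which bears on KO against WT too. The cultures hold feeder cells besides germ cells, and in bulk RNA fewer cells of a type and less RNA per cell cannot be told apart.

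Ribosomal proteins assemble on ribosomal RNA in the nucleolus, and growing cells make all of them in near-equal amounts. In mammals most of their mRNAs begin with a C followed by a run of pyrimidines, the TOP motif, through which the growth-regulating kinase complex mTORC1 controls their translation. Undifferentiated spermatogonia renew under GDNF, and RA drives their differentiation. Several ribosomal protein genes on the X chromosome have autosomal paralogs that male germ cells use.

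Start sites of the genes that carry the results are shown first because the pyrimidine run is the feature these mRNAs are known for. RefSeq (GRCm38.p6) gave starts for 63 of the 83 genes. A C followed by 4 bases that are each C or T began exactly at a RefSeq start in 13 of the 63 (20.6%), against 2.71% of the 15985 protein-coding genes in the same table. Allowing the same letters to begin within 10 bases of the start on the sense strand, 39 of the 63 (61.9%) held one, against 35.1% of all genes. The letters CCGGAAG, searched on both strands of the 300 bases from 250 before to 50 after the start, were found in 26 of the 63 (41.3%), against 13.2%. Each line below gives 15 bases before and 15 from the start, 5′ to 3′ on the gene's own strand, with capitals on the longest run that begins within those 10 bases.
Rpl15 (chr14:18270972-18271001, - strand): gtgggagaaagCCTTCTTCCTTTCCTCTgg
Rps18 (chr17:33955651-33955680, - strand): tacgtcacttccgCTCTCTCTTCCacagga
Rps6 (chr4:86857353-86857382, - strand): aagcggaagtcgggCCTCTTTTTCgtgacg
Rpl6 (chr5:121204486-121204515, + strand): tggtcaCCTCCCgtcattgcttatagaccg
Rpl39l (chr16:10170213-10170242, + strand): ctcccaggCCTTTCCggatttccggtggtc
Rpl10l (chr12:66284387-66284416, - strand): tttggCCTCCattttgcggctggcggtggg
Rpl4 (chr9:64173372-64173401, + strand): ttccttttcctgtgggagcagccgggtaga
Rplp0 (chr5:115559452-115559481, + strand): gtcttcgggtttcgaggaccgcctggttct
Rpsa (chr9:120127751-120127780, + strand): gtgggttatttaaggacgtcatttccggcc
The runs of Rps18, Rps6 and Rpl15 sit across the start, whereas Rpl4, Rplp0 and Rpsa have none that begins within 10 bases of it. In Rpl4 a pyrimidine run lies just beyond that limit, at the left of its window. These are matches of letters in a window around an annotated start and not measured start sites.

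The members were abundant and short. Their log2 values averaged over the libraries ranged between 3.51 for Rpl24 and 15.19 for Rpl4, with a median of 12.26, against 8.81 for all 16297 genes tested. Scaled per kilobase of transcript, the median log2 level was 12.60 for members and 7.42 for all genes tested, and 81 of the 83 lay above 10. The acidic stalk protein gene Rplp1 led on this per-length scale with 14.69, followed by Rpl4 with 14.57. At the low end were Rpl39 with 10.29, the muscle paralog Rpl3l with 5.71 and Rpl24 with 4.07. The Rpl24 row shares 484 exon bases with a predicted gene on the same strand, so its level is uncertain. Median transcript length was 827 bases for members and 2742 for all genes tested. The members lie on 19 chromosomes, 4 of them (Rpl10, Rpl36a, Rpl39, Rps4x) on the X. In all 13 members share exon bases with another protein-coding gene, in each case on the opposite strand. Besides these, 271 pseudogene rows carry a ribosomal protein name. How the authors' counting split reads between such copies is not given in the sources used here. Of those pseudogene rows 27 were tested. Their median log2 change at 24 h of RA against DMSO was -0.05 in KO and -0.25 in WT, against -0.09 and -0.23 for the members. What shared reads add to the member values was not tested.

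Several libraries bear on what follows. The library labelled WT25 at 4 h of DMSO had all 83 members above their own means over the 42 libraries, by a median of 1.02 on the log2 scale (0.20 to 1.43), while the medians of the other 41 libraries ranged between -0.26 and 0.10. Across all genes tested its values fell by 0.284 per doubling of transcript length, against slopes of -0.019 to 0.051 in the others. The library labelled KO20 at 4 h of DMSO almost repeated the RA library of KO20 at 24 h. The SD of their differences over genes was 0.034, and the next closest library stood at 0.099. Stra8 read 9.64 in it, against 6.46 and 6.63 in the other 2 KO libraries of that group, and 11.59 in the library labelled WT23 at 4 h of DMSO, against 7.93 and 8.12. The authors' column names remark on WT25 and KO20. For these reasons every comparison that does not need the 4 h DMSO libraries is given from all 42 libraries and from the 36 without them. The log2 changes are the same in both, since group means do not change, and the error differs. At 24 h Stra8 read 9.47 to 9.79 in KO with RA, against 6.41 to 6.78 with DMSO, and 14.10 to 14.73 in WT with RA, against 7.49 to 7.87 with DMSO. Reads of the gene were thus still present in KO, at lower values than in WT, and the deleted part is not given in the sources used here.

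**Figure D1:**
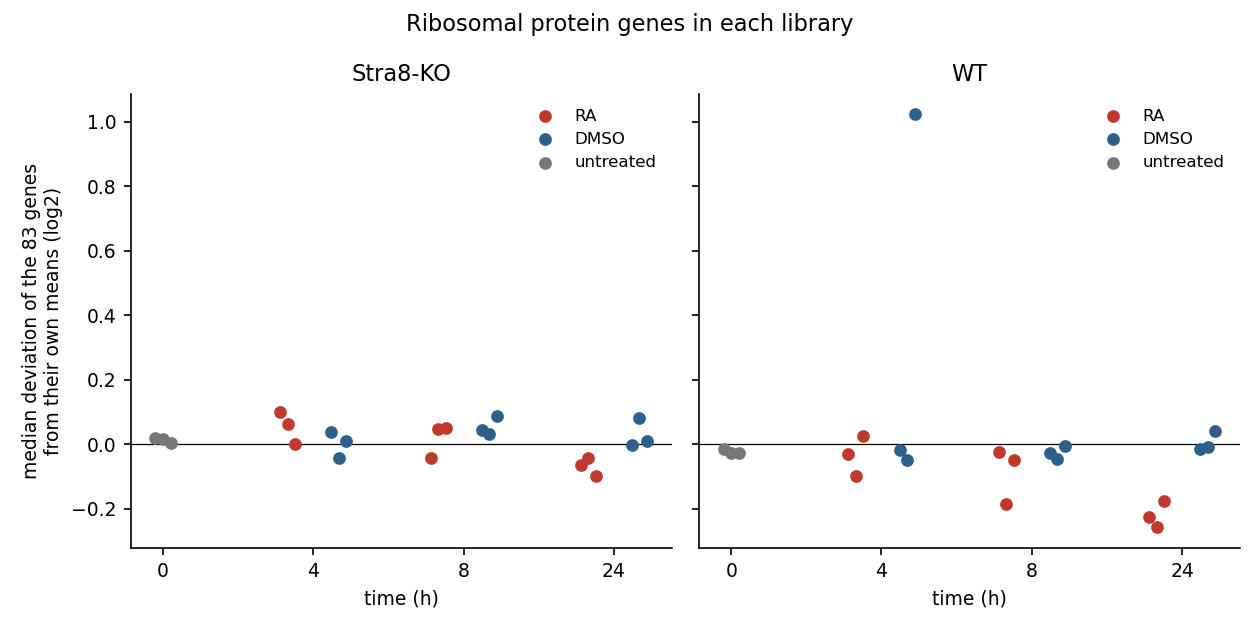
Median over the 83 genes of each gene's deviation from its own mean over 42 libraries (log2, y axis) by time (x axis), 1 point per library, Stra8-KO left and WT right, RA left of DMSO at each time. The 3 WT libraries at 24 h of RA lie at -0.23, -0.26 and -0.18, and WT25 at 4 h of DMSO lies at 1.02.

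At 24 h of RA the ribosomal protein genes were lower as a group in both genotypes, by a small amount, and the median fall was larger in WT. The median log2 change from DMSO was -0.09 in KO (6% lower) and -0.23 in WT (15% lower), against -0.01 and 0.00 for the median of all genes tested. In the authors' deposited comparisons the members' median fold changes were larger, -0.13 in KO and -0.34 in WT. In KO 76 of the 83 genes had a negative change, and in WT 80 did. Library medians of the members' deviations were -0.06, -0.04 and -0.10 in the KO RA libraries, against 0.00, 0.08 and 0.01 with DMSO. In WT they were -0.23, -0.26 and -0.18 with RA, against -0.01, -0.01 and 0.04 with DMSO. These medians of RA and DMSO libraries did not overlap in either genotype. By line, the median change was -0.06, -0.11 and -0.10 in KO12, KO20 and KO21, and -0.22, -0.25 and -0.21 in WT17, WT23 and WT25. The share of all summed linear values held by the 83 genes was 2.22% ± 0.05 in KO with RA, against 2.34% ± 0.07 with DMSO, and 2.03% ± 0.05 in WT with RA, against 2.30% ± 0.03 with DMSO (SD, n = 3 each). The values are relative to each library's total, so a lower share does not say how many molecules a cell held.

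How many single members passed the test depended on the 4 h DMSO libraries. With all 42 libraries, limma called no member in KO, where the smallest adjusted p was 0.145 (Rpl3l) and 1 member had an unadjusted p under 0.05. It called 6 lower (Rpl15, Rpl4, Rplp0, Rps16, Rpl19 and Rpl6) and 1 higher (Rpl3l) in WT. Among all genes tested 2.47% were called lower and 6.36% higher in KO, and 12.4% lower and 11.8% higher in WT, so the members' 7.23% in WT lay below the background. Without the 4 h DMSO libraries, 17 members were called lower and 1 higher in KO (20.5% lower, against 7.92% of all genes tested, with 10.4% higher), and 69 lower and 1 higher in WT (83.1% lower, against 19.3%, with 17.8% higher). Leaving out WT25 at 4 h of DMSO alone gave 16 members called in either direction in KO and 70 in WT. In the fit without the 4 h DMSO libraries, leaving out KO12, KO20 or KO21 as well gave 10, 7 and 6 called members in KO, and leaving out any 1 line gave 59 to 70 in WT. With the culture line as a block, 30 were called in KO and 73 in WT in the smaller fit, and 0 and 14 over all libraries. For the leave-out, blocked and other alternative fits, here and below, the share of all genes called was not worked out. Of the 17 genes lower in KO, 16 were among the 69 lower in WT, which is 94.1% of the KO genes and 23.2% of the WT genes. A count that needs no error estimate gave 38 members whose 3 RA values all lay below the 3 DMSO values in KO (19.6% of all genes tested did so) and 69 in WT (24.0%). All 3 lines moved down for 67 members in KO, against 34.7% of all genes, and for 74 in WT, against 32.7%.

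**Figure D2:**
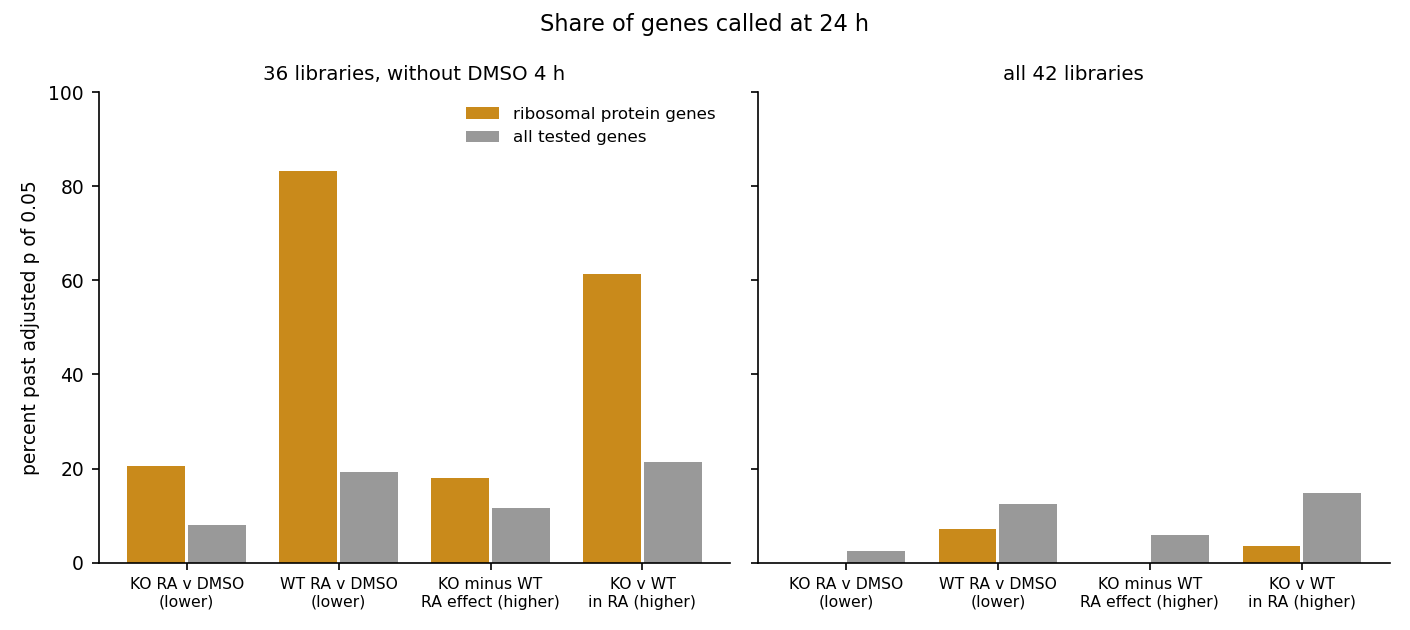
Percent of the 83 ribosomal protein genes (orange) and of all 16297 genes tested (grey) past an adjusted p of 0.05 in 4 comparisons at 24 h, in the direction named under each pair of bars. Without the 4 h DMSO libraries (left) 83.1% of the members were called lower in WT, against 19.3% of all genes; with all 42 (right) 7.23%, against 12.4%.

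The large-subunit gene Rpl4 (chromosome 9, 64173387 to 64178562, + strand) had the highest value of all members and fell in both genotypes, in KO only in the fit without the 4 h DMSO libraries. Positions here are those of the deposited table, and the submitters' processing notes name the build GRCm38.p4. Its log2 values were 15.04, 15.07 and 15.01 in KO with RA, against 15.19, 15.23 and 15.18 with DMSO. In WT they were 14.90, 14.88 and 14.95 with RA, against 15.19, 15.21 and 15.25 with DMSO. No RA library overlapped a DMSO library in either genotype. The change in KO was -0.16 ± 0.09 (SE; limma adjusted p = 0.295, and 0.0004 without the 4 h DMSO libraries), and in WT -0.31 ± 0.09 (0.00965, and 8.93e-09). Rpl4 was the member with the smallest p in both genotypes in the fit without those libraries. Its size depended on the processing. Over the main fit and its alternatives the change of Rpl4 ranged from -0.20 to -0.08 in KO and from -0.32 to -0.08 in WT.

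Rpl6 (chromosome 5, 121204481 to 121209241, + strand), also of the large subunit, behaved likewise. It had 12.75, 12.81 and 12.77 in KO with RA, against 12.94, 13.02 and 12.98 with DMSO, and 12.60, 12.66 and 12.65 in WT with RA, against 12.90, 12.96 and 12.93 with DMSO. Every RA value lay below every DMSO value. The change was -0.21 ± 0.11 in KO (limma adjusted p = 0.287, and 0.000471 without the 4 h DMSO libraries) and -0.29 ± 0.11 in WT (0.0485, and 1.54e-06).

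Other genes fell in WT, all of those below in the fit without the 4 h DMSO libraries, and their KO change was within 0.1 of DMSO. Rplp0 (chromosome 5, 115559467 to 115563727, + strand), the scaffold of the stalk that recruits elongation factors, had 14.20, 14.21 and 14.17 in KO with RA, against 14.17, 14.17 and 14.17 with DMSO. In WT it had 13.98, 13.96 and 13.99 with RA, against 14.27, 14.23 and 14.20 with DMSO. The 3 WT RA values stood apart from the other 9 libraries at 24 h, which lay between 14.17 and 14.27. The change was 0.02 ± 0.08 in KO (limma adjusted p = 0.928, and 0.788 without the 4 h DMSO libraries) and -0.26 ± 0.08 in WT (0.0193, and 1.02e-05). Its stalk partners Rplp1 and Rplp2 changed by -0.04 and -0.06 in KO and by -0.29 and -0.25 in WT. Both passed in WT only in the fit without the 4 h DMSO libraries (adjusted p = 0.00299 and 0.00257), and neither passed in KO.

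Rpsa (chromosome 9, 120127766 to 120132369, + strand), a small-subunit protein also known as a laminin receptor, had 14.07, 14.14 and 14.15 in KO with RA, against 14.13, 14.21 and 14.21 with DMSO. In WT it had 13.83, 13.81 and 13.92 with RA, against 14.18, 14.20 and 14.21 with DMSO. KO values overlapped between treatments and WT values did not. The WT change was -0.35 ± 0.13, with a limma adjusted p of 0.0554 over all libraries and 4.94e-07 without the 4 h DMSO libraries.

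The remaining genes called over all libraries in WT were of both subunits. Rpl15 (chromosome 14, 18267823 to 18271391, - strand) had 11.48, 11.46 and 11.46 in KO with RA, against 11.53, 11.53 and 11.56 with DMSO, and 11.20, 11.26 and 11.34 in WT with RA, against 11.48, 11.53 and 11.55 with DMSO. Its WT change of -0.26 ± 0.07 had the smallest p of any member over all libraries (limma adjusted p = 0.00863). RA and DMSO values of Rpl15 were apart in both genotypes, although the KO change of -0.07 passed in neither fit. Rpl19 (chromosome 11, 98026710 to 98030492, + strand) had 12.20, 12.29 and 12.23 in KO with RA, against 12.26, 12.36 and 12.24 with DMSO, and 11.93, 11.90 and 12.02 in WT with RA, against 12.23, 12.25 and 12.24 with DMSO. The KO groups of Rpl19 overlapped, and the WT groups were apart by more than 0.2. Rps16 (chromosome 7, 28350652 to 28352696, + strand) changed by -0.34 ± 0.12 in WT (adjusted p = 0.0366), with WT23 at 11.54 below the other 2 RA lines at 11.83 and 11.85.

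**Figure D3:**
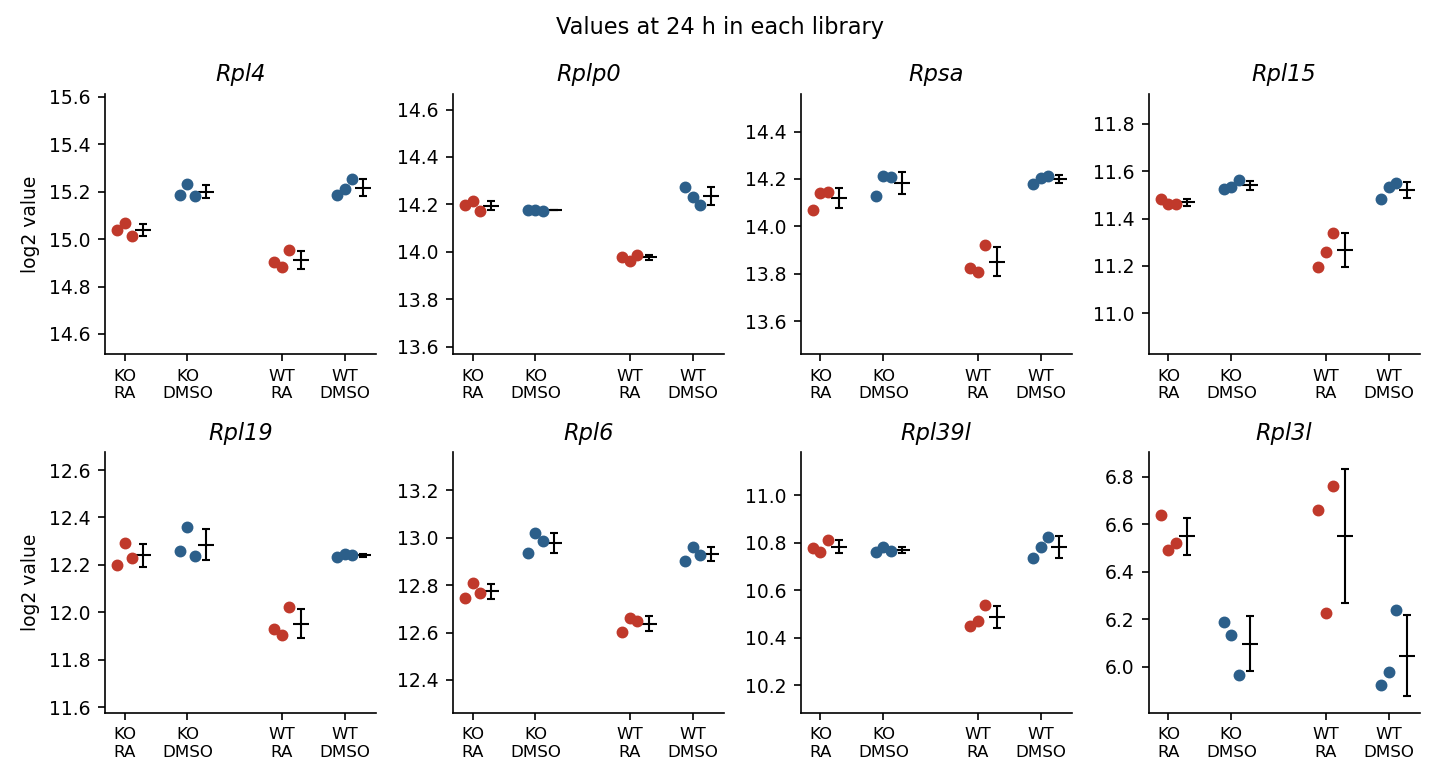
Log2 values of 8 genes at 24 h in each library (points), with the mean and SD of 3 lines beside them; KO left and WT right, RA (red) left of DMSO (blue), each y axis spanning 1.1 log2 units. Rplp0, Rpl19 and Rpl39l separate in WT and overlap in KO, whereas Rpl4 separates in both.

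The largest falls in WT were -0.37 ± 0.15 for Rpl13 (23% lower), -0.35 for Rpsa and Rps18 and -0.34 for Rps16, and in KO Rpl35, Rpl9, Rpl6 and Rpl13a led the called genes with -0.22, -0.21, -0.21 and -0.21. Rpl13 had 11.79, 11.43 and 11.84 in WT with RA, against 12.08, 12.02 and 12.06 with DMSO, WT23 being lowest. Rpl35 had 11.04, 11.09 and 10.92 in KO with RA, against 11.24, 11.32 and 11.13 with DMSO, and its KO change passed without the 4 h DMSO libraries (limma adjusted p = 0.00853). Rps6, the substrate of S6 kinase, changed by -0.12 in KO and -0.20 in WT, and passed in WT alone, without those libraries (adjusted p = 0.00592). By subunit, leaving paralogs aside and still without the 4 h DMSO libraries, 13 of 46 large-subunit and 4 of 31 small-subunit genes were called lower in KO, and 41 of 46 and 26 of 31 in WT. The medians were -0.11 for large-subunit and -0.09 for small-subunit genes in KO, and -0.25 and -0.21 in WT. The 13 genes not called in WT in that fit included the X-linked Rpl10 and Rpl39, Rps27, Rpl24, and the paralogs Rpl10l, Rpl22l1 and Rps27l. X-linked Rps4x and the paralogs Rpl39l and Rpl7l1 were called lower there. The 39 genes with a pyrimidine run that begins within 10 bases of the start had a median change of -0.08 in KO and -0.24 in WT. The 24 without one inside that limit, Rpl4 among them, had -0.09 and -0.23.

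**Figure D4:**
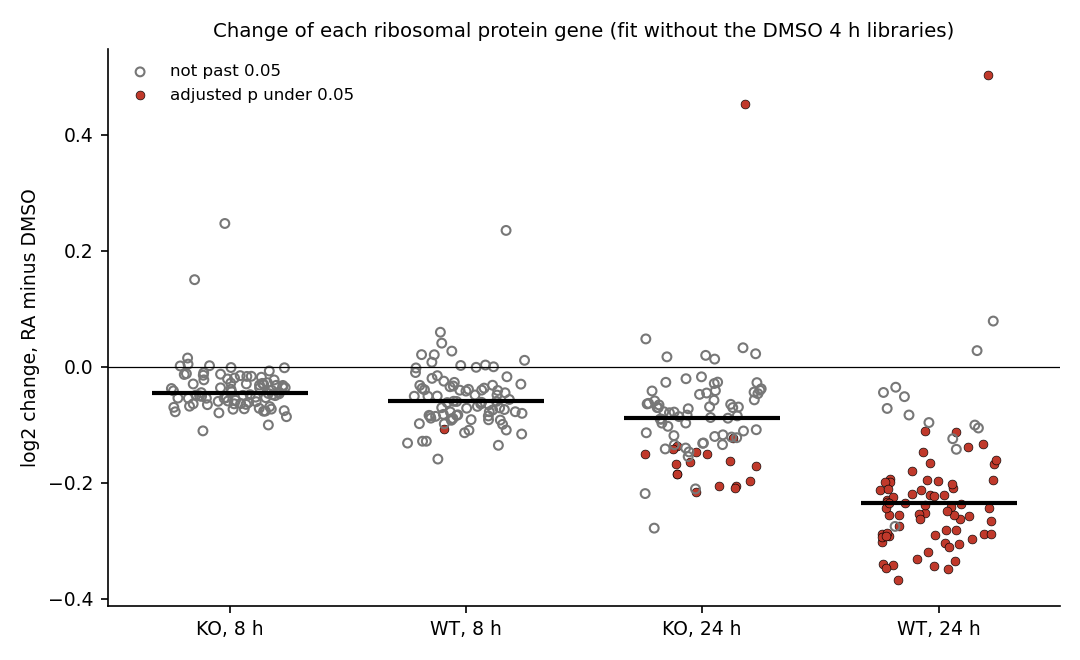
Log2 change with RA against DMSO of each of the 83 genes (1 point each, spread sideways to separate them) at 8 and 24 h, KO left of WT at each time; bars mark the medians of -0.04, -0.06, -0.09 and -0.23, and filled points passed an adjusted p of 0.05 in the fit without the 4 h DMSO libraries. The 2 points above 0.4 at 24 h are Rpl3l.

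Cell type markers moved in the same samples. The germ cell markers Dazl and Ddx4 averaged 15.15 and 13.77 on the log2 scale over the libraries. The 10 spermatogonial markers were all tested. Each list is given as the log2 of its summed linear values, on which its highest members weigh most, here Dazl. For these 10 it was 16.63 to 16.66 in KO with RA at 24 h, against 16.53 to 16.63 with DMSO. In WT it was 16.35 to 16.48 with RA, against 16.56 to 16.66 with DMSO. The ranges met in KO, while every WT RA library lay below every WT DMSO library. In WT 6 of the 10 were called lower and 1 higher, and in KO 3 were called higher. Over all libraries 12.4% of all genes tested were called lower and 11.8% higher in WT, and 6.36% higher in KO. Without the 4 h DMSO libraries these shares were 19.3%, 17.8% and 10.4%. Of 18 feeder fibroblast markers 17 were tested, and they summed to 15.22 to 15.44 in KO with RA, against 15.58 to 16.06 with DMSO, and to 15.12 to 15.79 in WT with RA, against 15.24 to 15.92 with DMSO. Feeder sums were thus lower with RA in KO without overlap, and overlapped in WT. Macrophage markers (4 of 6 tested) summed to 8.26 to 10.65 in KO with RA, against 8.53 to 10.89 with DMSO, and to 7.42 to 7.67 in WT with RA, against 8.53 to 8.97 with DMSO. Endothelial markers (4 of 5 tested) summed to 9.08 to 9.32 in KO with RA, against 8.45 to 8.80 with DMSO, and to 8.06 to 8.13 in WT with RA, against 8.50 to 8.79 with DMSO. Both lists were lower in WT with RA without overlap, and the endothelial one was higher in KO with RA. Sertoli markers (6 of 8 tested) summed to 9.21 to 9.43 in KO with RA and 9.07 to 9.41 with DMSO, and to 9.33 to 9.89 in WT with RA and 9.04 to 9.65 with DMSO. Leydig markers (3 of 6 tested) summed to at most 7.79 in any of these groups, and the list of meiotic cells and spermatids (3 of 7 tested) to at most 13.13. The defining spermatid markers Prm1, Prm2 and Tnp2 averaged -4.38, -3.84 and -4.38, the Sertoli marker Fshr -4.01 and the Leydig marker Lhcgr -3.55, near the lowest values of the table. Other members of these lists were higher. Sycp1, Sycp3 and Tnp1 averaged 12.04, 11.38 and 4.18. The Sertoli markers Clu, Sox9 and Wt1 averaged 7.81, 7.70 and 7.42, and the Leydig marker Star 6.61. The part of these shifts in the ribosomal protein result was not tested. The slope of values on transcript length was 0.010, 0.000 and 0.005 in the KO libraries at 24 h of RA, against 0.019, 0.009 and 0.010 with DMSO, and 0.026, 0.051 and 0.029 in WT with RA, against 0.012, 0.015 and 0.016 with DMSO. With a correction for that trend, and without the 4 h DMSO libraries, 32 members were called in KO and 65 in WT. The share of all genes called with that correction was not worked out.

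Paralogs moved in several directions. Rpl3l, which replaces Rpl3 in heart and skeletal muscle, was the member that rose: it had 6.64, 6.49 and 6.52 in KO with RA, against 6.19, 6.13 and 5.97 with DMSO, and 6.66, 6.23 and 6.76 in WT with RA, against 5.92, 5.98 and 6.24 with DMSO. The KO groups did not overlap, and in WT the RA value of WT23 fell just below the DMSO value of WT25. Its change was 0.45 ± 0.19 in KO (limma adjusted p = 0.145, and 0.0455 without the 4 h DMSO libraries) and 0.50 ± 0.19 in WT (0.0487, and 0.0132). Rpl3, its abundant counterpart, changed by -0.07 in KO and -0.13 in WT, and the WT change passed only without those libraries (adjusted p = 0.0132).

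Rpl39l, the autosomal counterpart of X-linked Rpl39 that is known from mouse testis, had 10.78, 10.76 and 10.81 in KO with RA, against 10.76, 10.78 and 10.77 with DMSO. In WT it had 10.45, 10.47 and 10.54 with RA, against 10.74, 10.78 and 10.83 with DMSO. Its 3 WT RA libraries stood below all 9 others. The WT change was -0.30 ± 0.14 (limma adjusted p = 0.119, and 3.57e-05 without the 4 h DMSO libraries), and the KO change 0.01 ± 0.14. Rpl39 itself changed by -0.12 in KO and -0.10 in WT with neither passing, and its 10.29 per kilobase lay below the 11.38 of Rpl39l on the log2 scale.

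Rpl10l, an autosomal retrogene that stands in for X-linked Rpl10 during meiosis in mouse, had 10.58, 10.64 and 10.64 in KO with RA, against 10.55, 10.65 and 10.60 with DMSO, and 10.67, 10.56 and 10.69 in WT with RA, against 10.63, 10.77 and 10.65 with DMSO. The groups overlapped in both genotypes. Rpl10 changed by -0.16 in KO and -0.14 in WT, and passed in KO alone, in the fit without the 4 h DMSO libraries (limma adjusted p = 0.0466, and 0.0555 in WT). Rpl22l1, which Rpl22 represses in mouse, had a change of -0.21 ± 0.16 in KO and 0.03 ± 0.16 in WT, and neither passed in either fit. Rpl22 changed by -0.12 in KO and -0.30 in WT, and the WT change passed without the 4 h DMSO libraries (limma adjusted p = 2.71e-06). Rps27l, a p53 target, changed by 0.03 in KO and -0.05 in WT, its parent Rps27 by -0.08 and -0.07, and none of these changes passed. Rpl7l1 changed by -0.03 in KO and -0.11 in WT, and Rpl7 by -0.14 and -0.23. In the smaller fit, of the 36 libraries, Rpl7 passed in both genotypes (adjusted p = 0.00281 and 2.45e-06) and Rpl7l1 in WT (0.0234).

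**Figure D5:**
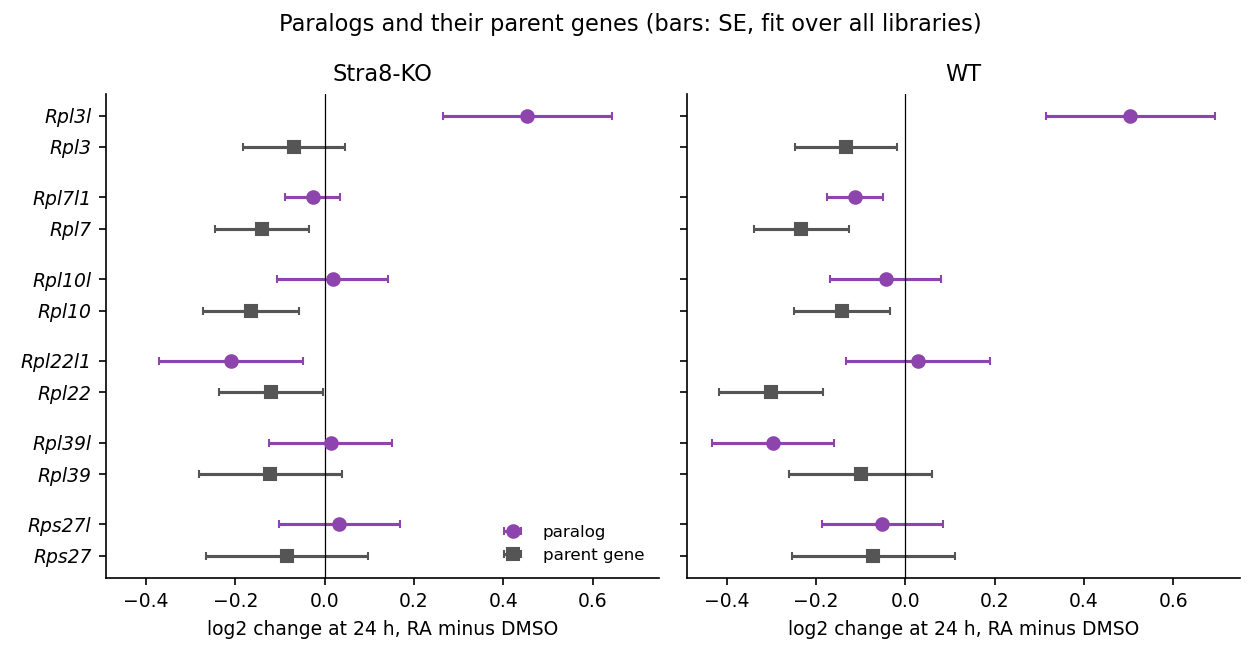
Log2 change at 24 h of RA against DMSO (x axis; bars, SE of the fit over all 42 libraries) for 6 paralogs (circles) and their parent genes (squares), KO left and WT right. Rpl3l lies at 0.45 and 0.50, and Rpl39l at 0.01 in KO and -0.30 in WT.

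The responses of KO and WT were then compared with each other. The quantity is the log2 change with RA in KO less that in WT, and a positive value stands for a smaller fall or a larger rise in KO. The median over members was 0.13 at 24 h, against 0.00 for all genes tested, and 75 of the 83 genes were above 0. Over all libraries limma called none (5.88% of all genes tested were called higher and 2.56% lower), with 1 member at an unadjusted p under 0.05. Without the 4 h DMSO libraries 15 were called higher and none lower, which is 18.1%, against 11.7% of all genes higher and 7.82% lower. Leaving out KO12, KO20 or KO21 from that fit gave 7, 6 and 8, and the line as a block gave 34. All 15 were among the genes lower in WT, and 1 of them, Rpl4, was also called lower in KO. The difference of Rpl4 was 0.14, and -0.0012 with quantile normalization over all libraries. Rpl39l differed by 0.31 ± 0.07 (SE of that fit; adjusted p = 0.00278), Rpsa by 0.28 ± 0.06 (0.0019) and Rplp0 by 0.28 ± 0.06 (0.000872). At 8 h the median difference was 0.01 and neither fit called a member, with no unadjusted p under 0.05 in either (all genes tested: 0.00614% higher and 0.0% lower over all libraries, 0.43% and 0.0123% without the 4 h DMSO libraries).

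Set side by side in RA at 24 h, KO cultures had more ribosomal protein transcript than WT cultures by a median of 0.16 (12%), with 78 of 83 genes above 0. With all libraries 3 genes were called higher (Rpl15, Rpl19 and Rplp0; 14.8% of all genes tested were, and 10.8% were lower) and without the 4 h DMSO libraries 51 were (61.4%, against 21.3%, with 17.6% lower); leaving out KO20 from that fit gave 33. Over all libraries the line as a block gave 1. KO and WT libraries did not overlap for 61 genes higher in KO and 1 lower, while 27.6% of all genes tested were higher without overlap. Rpl19 differed by 0.29 ± 0.11 (limma adjusted p = 0.0462). In untreated cultures the median difference was 0.04, with 69 of 83 genes above 0, and no member was called in either fit. At an unadjusted p under 0.05 there were 0 members over all libraries and 4 without the 4 h DMSO libraries. Among all genes tested 0.0% were called in either direction over all libraries, and 0.00614% in each direction without the 4 h DMSO libraries.

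At 8 h of RA the members had moved little. The median change from DMSO was -0.04 in KO and -0.06 in WT, with 77 and 72 of the 83 genes negative. No member was called over all libraries, where 0.313% of all genes in KO and 3.17% in WT were called lower and 2.9% and 1.95% higher, and no member had an unadjusted p under 0.05. Rpl8, a large-subunit gene, was called in WT without the 4 h DMSO libraries (1.22% of all genes tested were called lower and 5.27% higher in KO, and 6.58% lower and 5.24% higher in WT). It had 13.88, 13.81 and 13.88 in WT with RA, against 13.94, 14.01 and 13.94 with DMSO, a change of -0.11 ± 0.04 (SE of that fit; limma adjusted p = 0.0493). The call was lost whichever line was left out and with quantile normalization, where no member passed. With the line as a block 7 members passed, and the share of all genes called in that fit was not worked out. RA values lay below all DMSO values for 8 members in KO (9.11% of all genes tested) and 6 in WT (12.6%). The WT line medians were 0.00, -0.12 and -0.05, WT23 being lowest.

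At 4 h the members were set against untreated cultures as well as DMSO, since 3 of the DMSO libraries of that time are in doubt. After 4 h of RA the median change from untreated was 0.04 in KO and 0.00 in WT, and no member passed over all libraries (4.81% of all genes were called higher and 3.57% lower in KO, and 5.3% higher and 5.71% lower in WT). Without the 4 h DMSO libraries Rpl7a and Rpl7l1 passed in KO, by 0.16 and 0.11 (10.4% of all genes tested were higher and 7.79% lower), and Rpl7l1 passed in WT, by 0.12 (11.8% were). Rpl7l1 lay between 11.95 and 12.02 in KO at 4 h of RA, against 11.90, 11.89 and 11.86 untreated, and between 11.94 and 12.03 in WT, against 11.83, 11.92 and 11.86. Each line was higher with RA in both genotypes. X-linked Rps4x and Rps27l were called lower in WT in that fit (10.2% of all genes tested were). With the line as a block that fit called 5 members in KO and 6 in WT. Rps4x had 10.33, 10.46 and 10.32 in WT at 4 h of RA, against 10.62, 10.81 and 10.65 untreated. It also varied among groups without RA, with 10.87, 10.96 and 11.04 in KO and 10.95, 10.70 and 10.90 in WT at 24 h of DMSO. At 4 h of DMSO Rps4x read 10.28, 10.35 and 11.21 in WT17, WT23 and WT25, and Rps27l 9.86, 9.80 and 10.86. In KO12, KO20 and KO21 at that time, Rpl7l1 read 12.01, 11.83 and 11.98 with DMSO, and Rpl7a 12.99, 12.69 and 12.93. WT23, WT25 and KO20 are the libraries in doubt. In the others these genes lay near their RA values, and the calls above are changes from untreated, not from DMSO.

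Against DMSO at 4 h the result in WT followed 1 library. The median RA change there was 0.05 in KO and -0.34 in WT, and no member passed (0.00614% of all genes tested were called lower and 0.454% higher in KO, and 0.663% and 2.34% in WT), while 66 members in WT and 0 in KO had an unadjusted p under 0.05. With the line as a block 17 passed in WT. By line the change was 0.06, 0.09 and 0.00 in KO12, KO20 and KO21, and 0.00, -0.03 and -1.01 in WT17, WT23 and WT25. DMSO at 4 h against untreated had a median of -0.01 in KO and 0.34 in WT, where 6 members were called higher (Rpl7a, Rpl12, Rpl8 and Rpl28 among them; 5.82% of all genes tested were, and 6.1% were lower) and none in KO (0.227% and 0.117%). Without WT25 at 4 h of DMSO none was called, and with the line as a block 44 were in WT. Rpl12 read 13.29, 13.35 and 14.32 in WT17, WT23 and WT25 at 4 h of DMSO, against 13.24, 13.23 and 13.21 untreated. For DMSO at 24 h against untreated, limma called no member in either genotype in the unblocked fits, and 1 in KO with the line as a block in the smaller fit. Median changes were 0.01 in KO and 0.03 in WT, the largest being 0.35 for Rps4x in KO, and at most 0.00614% of all genes were called. At an unadjusted p under 0.05 there were 1 member in KO and 0 in WT over all libraries, and 3 and 0 without the 4 h DMSO libraries.

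Other genes of ribosome production and translation were described from lists chosen with earlier results known. Of 41 tested genes of ribosome biogenesis and the nucleolus, 1 was called higher and none lower in KO at 24 h of RA, and 18 were lower in WT (over all genes tested, 6.36% were higher and 2.47% lower in KO, and 12.4% lower in WT), with medians of -0.03 in KO and -0.19 in WT. Rrp9, of the small-subunit processome, changed by -0.01 in KO and fell by 0.64 ± 0.09 in WT (limma adjusted p = 1.78e-06). Rrp12 fell by 0.38 in WT (adjusted p = 1.62e-05). The RA effect in KO minus that in WT was called higher in 7 of the 41 and lower in none (5.88% of all genes tested were higher). In the fit without the 4 h DMSO libraries 2 were higher and 5 lower in KO, 31 lower in WT, and 16 higher for the difference (all genes tested: 10.4% higher and 7.92% lower in KO, 19.3% lower in WT, and 11.7% higher for the difference). Of 20 genes of RNA polymerase I and its factors, 1 was lower in KO and 3 in WT, and 4 and 7 without the 4 h DMSO libraries. The 3 of 20 in WT are close to the 12.4% of all genes tested. Of 26 translation factors and other genes with TOP mRNAs, none passed in KO, while 7 were lower and 1 higher in WT (12.4% and 11.8% of all genes tested), with medians of -0.09 and -0.17. The smaller fit called 10 lower in KO, and 18 lower and 2 higher in WT. The elongation factor subunit gene Eef1g fell by 0.37 ± 0.10 in WT (adjusted p = 0.00658) and Pabpc4 rose by 0.29.

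Among 21 genes of mTORC1 and the control of TOP mRNAs, 1 was higher in KO, and 2 were higher and 6 lower in WT (all genes tested: 6.36% higher in KO, and 11.8% higher and 12.4% lower in WT). The fit without the 4 h DMSO libraries called 1 higher and 5 lower in KO, and 3 higher and 10 lower in WT. In that fit 10.4% of all genes tested were higher and 7.92% lower in KO, and 17.8% higher and 19.3% lower in WT. The kinase gene Mtor itself rose by 0.67 ± 0.13 in KO (limma adjusted p = 0.000643) and by 0.62 ± 0.13 in WT (0.000549). Larp1, whose protein binds TOP mRNAs, changed by -0.13 in KO and fell by 0.44 ± 0.08 in WT (adjusted p = 7.25e-05). The difference between the genotypes was 0.05 for Mtor (adjusted p = 0.922) and 0.31 for Larp1 (0.0705, and 0.00452 without the 4 h DMSO libraries).

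The authors' deposited table of comparisons listed 1 member higher and 19 lower at 24 h of RA in KO (7.86% of all genes with an adjusted p were lower), and 1 higher and 70 lower in WT (16.1%). Its median log2 fold change over the members was -0.13 in KO and -0.34 in WT. For Rpl4 the authors' deposited table gives -0.24 in KO and -0.45 in WT, larger than the differences of the deposited log2 values. In the authors' deposited table of the genotype by treatment term at 24 h, 23 members passed, all with a negative sign, against 12.4% of all genes. That sign ran opposite to KO minus WT in 3478 of the 3478 genes that passed 0.05 there and were also among the 16297 genes tested.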

How the data were processed

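Per the labels, 43 samples were sequenced with TruSeq stranded mRNA chemistry, and 42 columns of values were analysed. STAR 2.5.1b, DESeq and GRCm38.p4 are named in the submitters' processing notes without a role, and the counter is not given in the sources used here. The deposited log2 values had been scaled by the authors, per the file headers. Genes of low level vary little around their mean, so their changes are understated, and depth is unknown. The members' median changes at 24 h were also smaller in these values than in the authors' deposited comparisons. The authors' mean signal per gene served for description, and the log2 fold changes of their deposited comparisons only where named.

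Genes whose value, taken back to the linear scale, reached 10 in 3 or more libraries were tested (16297). limma 3.58.1 (R 4.3.3; trended, robust variances) fitted 1 mean per group over 14 groups. Benjamini-Hochberg adjustment ran over the tested genes, and 0.05 was the threshold in all 16 comparisons, each repeated, where possible, without the 6 DMSO libraries at 4 h. The code was tested on simulated data. Levels per kilobase used the length of the principal transcript, and start windows came from RefSeq. Libraries of the same line deviated together: correlations of deviations from group means were 0.144 to 0.723 in KO (100% of 45 above 0.1) and -0.167 to 0.616 in WT (91.1% of 45). The labels do not say that the names pair samples, so fits have no block, and blocked counts stand beside results that they move. Alternatives were a replicate block, quantile normalization, no filter, only the compared groups, leaving out libraries, and a length correction. Shares of all genes called were worked out only for the unblocked fits over all libraries and without the 4 h DMSO libraries.

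The members, lists and tests were chosen with earlier results of these data known. Named members were the paralogs and their parents, Rplp0, Rplp1, Rplp2, Rpsa, Rps6, up to 4 called members with the largest change per direction and comparison, and those of extreme level or spread. Other members are named where they make up a count or for their values. WT17 at 24 h of RA has 2 labelled samples and 1 column, which was used as 1 library of that group. The counts cover a few genes that are not reported here by name.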

Additional observations from a re-analysis of the deposited data

Results flagged for a closer look

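The RA effect at 24 h differed between KO and WT, by the test of that difference itself, for 15 ribosomal protein genes in the fit without the 4 h DMSO libraries (limma), with a higher value in KO each time. On the log2 scale, KO minus WT was, for those reported here, 0.31 for Rpl39l, 0.28 for Rpsa, 0.28 for Rplp0, 0.27 for Rpl31, 0.24 for Rpl19, 0.22 for Rps2, 0.22 for Rps12, 0.21 for Rpl41, 0.18 for Rpl15, 0.18 for Rpl11, 0.18 for Rpl22, 0.16 for Rps9, 0.14 for Rpl4 and 0.14 for Rps3. Over all 42 libraries none of these differences passed, and that of Rpl4 was -0.0012 with quantile normalization. Leaving out each line in turn from the smaller fit gave between 6 and 15 such genes, and the line as a block gave 34. Rpl31 and Rpl15 share exon bases with a gene on the opposite strand (420 with Tbc1d8 and 105 with Nkiras1).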

How the results depend on the processing

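Median changes were negative at 24 h in both genotypes under the alternatives run, whereas counts of called members depended on which libraries set the error. Depth is unknown, so what it limits could not be given, and the causes of the differences below were not tested. All counts are of called members in either direction, and the principal-transcript length correction, the omission of WT25 at 4 h of DMSO alone and every alternative to the smaller fit were chosen after seeing the data.

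Over all libraries, for KO at 24 h (0 called), the count was 20 with the compared groups alone, 19 without the 3 libraries in doubt (KO20, WT23 and WT25 at 4 h of DMSO), 18 without all 4 h DMSO libraries, 16 without WT25 at 4 h of DMSO, and 4 and 9 with a length correction (exon length and principal transcript). For WT at 24 h (7), it was 65, 70, 70, 70, 31 and 45 in the same order, 1 with quantile normalization and 2 with no filter. For the difference between the responses at 24 h (0), it was 19, 16, 15, 13, 1 and 1 in that order. For KO against WT in RA at 24 h (3), it was 50, 52, 51, 49, 8 and 9, and 0 with no filter. For 4 h of RA against untreated (0), it was 2, 2 and 2 in KO with the compared groups alone, without the 3 and without all 4 h DMSO libraries, and 1, 2 and 3 in WT, with 2 in WT without WT25. For WT at 8 h (0), it was 1 without the 3 and 1 without all 4 h DMSO libraries. For RA against DMSO at 4 h in WT (0), it was 2 with quantile normalization and 1 with the principal-transcript correction. For DMSO at 4 h against untreated in WT (6), it was 2 with quantile normalization, 0 with no filter, 0 with the compared groups alone, 0 without WT25, and 10 with the exon length correction.

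In the fit without the 4 h DMSO libraries, the principal-transcript correction and quantile normalization gave 32 and 8 for KO at 24 h (18), 6 and 9 for the difference between responses (15), 3 and 0 for WT at 8 h (1), and 5 and 1 for KO at 4 h of RA against untreated (2). The correction gave 33 for KO against WT in RA (51), and quantile normalization gave 6 for WT at 4 h of RA against untreated (3).

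Leaving out each line in turn gave, over all libraries, 0 to 14 for KO at 24 h, 0 to 57 for WT at 24 h (57 without WT25, 0 without WT17 or WT23), 0 to 8 for the difference, 0 to 51 for KO against WT in RA, 0 to 46 for WT at 4 h and 0 to 70 for DMSO at 4 h in WT. Without the 4 h DMSO libraries it gave 6 to 26 for KO at 24 h, 59 to 70 for WT at 24 h, 6 to 15 for the difference, 33 to 50 for KO against WT in RA, 0 to 6 for KO and 1 to 3 for WT at 4 h of RA, and 0 to 0 for WT at 8 h.

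With the replicate block, the counts over all libraries were 14 for WT at 24 h, 17 for WT at 4 h, 44 for DMSO at 4 h in WT and 1 for KO against WT in RA. In the smaller fit the block gave 30 for KO at 24 h, 34 for the difference, 7 for WT at 8 h, 5 for KO and 6 for WT at 4 h of RA against untreated, and 1 for DMSO at 24 h in KO. Of single genes, Rpl4 changed sign under 1 alternative, its difference between responses being -0.0012 with quantile normalization.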
